A study of Mus musculus with 24 samples.

Results

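The 6 libraries described here are the CD45+CD8+ cells of mice treated with LCL161, 3 sorted from pancreatic tumors and 3 sorted from spleens, out of 24 libraries in the series. The groups were defined by their labels alone (tissue, sorted population and treatment). The comparison between them was chosen with earlier results of these data known. All animals, in every group, were TCRα-/-, that is, with the gene of the T cell receptor alpha chain disrupted, and no wild-type group was analysed here. Each carried an orthotopic tumor, grown in the pancreas from M8 organoids kept by live passage. LCL161 was given by oral gavage at 75 mg/kg at intervals of 3 days from day 4, with harvest on day 12, when 3 doses had been given. As comparison, 2 further pairs of groups, with 3 libraries in each group, were used: CD45+CD8+ cells of tumor and spleen under vehicle, and CD45+CD4+ cells of tumor and spleen under LCL161. The labels do not say whether the replicates are separate mice, so the p-values measure the spread between these samples, which may be technical. Nothing in the labels gives the age or sex of the mice or the origin of the organoids.

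LCL161 is a small-molecule mimic of SMAC that causes the loss of cIAP1 and cIAP2, ubiquitin ligases that restrain the alternative NF-kB pathway. T cells that settle in a tissue or tumor usually differ from those that circulate through the spleen: they lose the receptors that let cells enter lymph nodes and return to blood, and gain adhesion molecules, chemokine receptors and, where antigen persists, inhibitory receptors. TCRα-/- mice lack conventional alpha beta T cells, while gamma delta T cells can develop, and CD8 is also carried by a subset of splenic dendritic cells. The comparison of tumor with spleen therefore asks how the cells that passed the CD8 gate differ between the 2 places in treated mice.

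Library totals were 15460000 to 17990000 counts in the tumor group and 18160000 to 20290000 in the spleen group. Mitochondrial genes took 1.37 to 1.42% of counts in the tumor libraries and 2.10 to 2.37% in the spleen libraries. Levels are given as CPM, counts scaled to the library size, as mean ± SD of 3 libraries or as the value in replicates 1, 2 and 3. Since CPM is not divided by gene length, levels are compared between samples and not between genes. Log2 fold changes are tumor minus spleen, with their standard error (SE), and adjusted p-values are from edgeR's quasi-likelihood test over all 20174 genes tested, with a threshold of 0.05. In bulk libraries, fewer cells of a type and less RNA per cell cannot be told apart.

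Trac, the constant segment of the disrupted alpha chain, was counted at 19.6, 35.5 and 21.7 CPM in tumor and 12.2, 21.1 and 20.2 CPM in spleen, groups that overlap (adjusted p = 0.650). The labels do not say which part of the gene is disrupted, so these reads do not check the genotype. Reads of the constant segment of the delta chain, Trdc, were at 1307, 1160 and 1478 CPM in tumor and 912, 941 and 1292 CPM in spleen, which also overlap (adjusted p = 0.883). The constant segment of the beta chain, Trbc1, was at 391 ± 21.6 and 331 ± 61.7 CPM, and the gamma chain segment Tcrg-C1 at 479 ± 65.9 and 287 ± 68.0 CPM, without passing the test. The Tcrg-C genes are near-identical copies, so their shares of reads are uncertain. Over all genes tested 4.92% were higher in tumor, and within the receptor complex 3 of 14 genes were. Among them Cd3e and Cd3g, signaling chains of the complex, were 1.66-fold and 1.62-fold higher (adjusted p = 0.0177 and 0.0258). None of the 3 passed without spleen replicate 2 or without tumor replicate 1, and 1 did without tumor replicate 3.

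The sorted cells carried the RNA of the marker they were sorted on. Cd8a, the alpha chain of CD8, was at 1088, 1067 and 1159 CPM in tumor and 623, 565 and 776 CPM in spleen, and Cd8b1, its beta chain, at 326, 563 and 672 CPM against 500, 703 and 731 CPM. Neither difference passed the test (adjusted p = 0.324 and 0.794). In the CD4-sorted libraries of LCL161-treated mice the mean of Cd8a was 0.316 CPM in tumor and 0.625 CPM in spleen. Cd4 was low in the CD8-sorted cells, at 21.1 ± 9.37 CPM in tumor and 8.68 ± 2.01 CPM in spleen, against 1176 ± 174 and 1259 ± 166 CPM in the CD4 sort. That small difference passed the test (log2 fold change 1.28, SE 0.31, adjusted p = 0.0172), but not without spleen replicate 2 (0.108), spleen replicate 3 (0.0613) or tumor replicate 2 (0.112). Of the 10 CD8 lineage genes none passed by edgeR, 2 had an unadjusted p under 0.05, and DESeq2 called 1. In edgeR with the compared libraries alone 1 was higher and 1 lower, and without spleen replicate 1 there was 1 higher. By limma voom 2 were higher and 1 lower.

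Of the genes tested, 992 (4.92%) were higher and 778 (3.86%) lower in tumor than in spleen, and 1020 of these 1770 genes differed at least 2-fold. The values of the 2 groups did not overlap for 6301 genes (31.2%), and for 1721 of the 1770 genes past the threshold. The median log2 fold change of all genes was 0.00. The count depended on single libraries: it was 313 without spleen replicate 2, 576 without tumor replicate 1, 810 without tumor replicate 2 and 1086 without spleen replicate 3, and 1236 to 1841 without either of the others. With the summed levels of B cell, macrophage and dendritic cell markers as covariates no gene passed (845 had an unadjusted p under 0.05). The B cell and macrophage sums separate the tissues, while the dendritic cell sums overlap. Tissue and the content of other cells therefore cannot be told apart in that fit.

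By gene list, read against these percentages, glycolysis and hypoxia genes (17 of 28 higher), tissue residency genes (9 of 20), type I interferon response genes (9 of 22), interferon gamma response genes (8 of 21) and TGF-beta pathway genes (7 of 20) had the highest shares of members past the threshold on the tumor side among lists of T cell genes. Naive, memory and recirculation genes had the highest share on the spleen side among lists of T cell genes, with 5 of 20 lower and 1 higher. Lists of T cell genes here means those not made of markers of other cells. Some of them, such as glycolysis, interferon response and MHC class I genes, are not particular to T cells. The lists were chosen with earlier results of these data known, so these shares are descriptive and not an independent test of the lists.

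**Figure D1:**
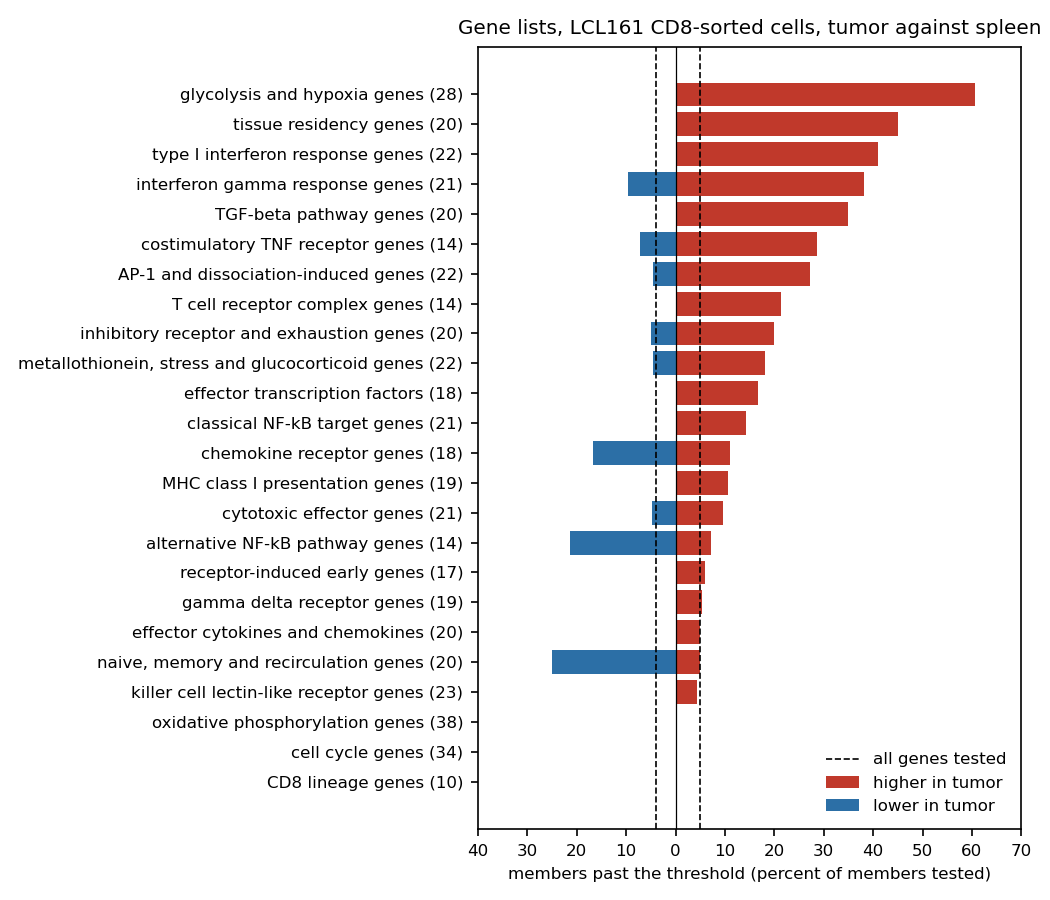
Percent of the tested members of each list of T cell genes (number tested in parentheses) that were higher (red, to the right) or lower (blue, to the left) in tumor than in spleen in LCL161 CD8-sorted cells, by edgeR at an adjusted p under 0.05. Dashed lines mark the percent over all genes tested, 4.92 higher and 3.86 lower. Some of these lists hold genes that are not particular to T cells. Glycolysis and hypoxia genes reach furthest to the right with 17 of 28 members, and no member of the oxidative phosphorylation, cell cycle or CD8 lineage lists passed. The lists were chosen with earlier results of these data known.

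Of 20 tissue residency genes 9 were higher in the tumor libraries, none was lower and 11 did not pass, with a median log2 fold change of 1.22. Cxcr6, the receptor of the chemokine CXCL16 (chr9:123806475-123811760, GRCm38), was at 1125, 772 and 767 CPM in tumor against 140, 184 and 349 CPM in spleen. All tumor values lay above all spleen values, a fold of 3.96 (log2 fold change 1.99, SE 0.47, adjusted p = 0.0149). Itga1, the collagen-binding integrin CD49a, was at 92.5, 110 and 112 CPM against 12.9, 21.5 and 40.1 CPM, a fold of 4.20 (adjusted p = 0.0203). Cdh1, the adhesion molecule E-cadherin that also marks epithelium, was at 88.7, 171 and 99.6 CPM against 20.03, 27.2 and 36.6 CPM (adjusted p = 0.0211). Rgs1, which dampens signaling of chemokine receptors, was 2.64-fold higher at 332 ± 41.2 against 125 ± 50.2 CPM (adjusted p = 0.0189). Qpct, an enzyme that modifies the ends of peptides, was 3.84-fold higher (adjusted p = 0.0128), and the lipid receptor gene Gpr55 4.47-fold higher (adjusted p = 0.0272, and 0.0505 with a replicate block).

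The other members of the list that passed were the transcription factor genes Bhlhe40 (649 ± 155 against 258 ± 96.0 CPM) and Zfp683, known as Hobit (6.98 ± 3.31 against 2.696 ± 1.26 CPM, groups that overlap), and the ATP receptor gene P2rx7 (149 ± 23.5 against 53.3 ± 19.1 CPM). With a replicate block the adjusted p of P2rx7 was 0.0538. Cd69, the early activation and retention marker, did not pass, at 467, 517 and 442 CPM in tumor and 373, 370 and 518 CPM in spleen, and Itgae, the integrin CD103, was at 180 ± 65.2 against 85.6 ± 44.7 CPM (adjusted p = 0.598). The number of residency genes that passed was 0 without spleen replicate 2, 3 without tumor replicate 1 or tumor replicate 2, and 4 without spleen replicate 1. Without spleen replicate 2 the adjusted p of Cxcr6 was 0.0912, that of Qpct 0.0680, and the adjusted p of Cdh1, Itga1, Rgs1 and Gpr55 was 0.103, 0.110, 0.121 and 0.157. With the marker sums of other cells as covariates Cxcr6, Rgs1 and Itga1 turned (log2 fold changes -0.78, -0.67 and -0.44), as did Bhlhe40. Qpct, Cdh1 and Gpr55 kept their direction, and none of these genes passed. The part of other cells in these differences was not tested.

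Of 20 naive, memory and recirculation genes 5 were lower in the tumor, 1 was higher and 14 did not pass. Dapl1, a gene of naive and memory-like T cells, fell from 25.8, 35.4 and 22.97 CPM in spleen to 1.20, 2.68 and 1.68 CPM in tumor, 15.1-fold lower (log2 fold change -3.92, SE 0.53, adjusted p = 0.00136). It passed whichever library was left out. S1pr1, which lets lymphocytes leave a tissue along a sphingosine phosphate gradient, was at 82.4, 130 and 106 CPM against 258, 314 and 234 CPM, 2.53-fold lower (adjusted p = 0.0225). The transcription factor genes Klf3 and Id3 were 2.17-fold and 3.30-fold lower (adjusted p = 0.0116 and 0.0381, that of Id3 0.0569 with a replicate block).

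Cd44, a hyaluronan receptor of activated and memory T cells that stands in the same list, was the member that rose, at 511, 415 and 383 CPM against 212, 207 and 243 CPM (adjusted p = 0.00839). Ccr7, the chemokine receptor of lymph node entry, was at 166 ± 84.1 against 337 ± 68.3 CPM, and Tcf7, the transcription factor TCF1 of naive and stem-like T cells, at 465 ± 76.0 against 739 ± 130 CPM. These 2 did not pass (adjusted p = 0.316 and 0.219). Their groups do not overlap, as held for 31.2% of all genes tested. The 5 lower genes became 1 without spleen replicate 2 or tumor replicate 1, 2 without tumor replicate 3 and 3 without spleen replicate 3. The summed B cell markers moved on the same side, from 2589 to 4786 CPM in spleen to 405 to 622 CPM in tumor, and some of these recirculation genes (Ccr7 and S1pr1) are expressed by B cells as well. Their part in the result was not tested.

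**Figure D2:**
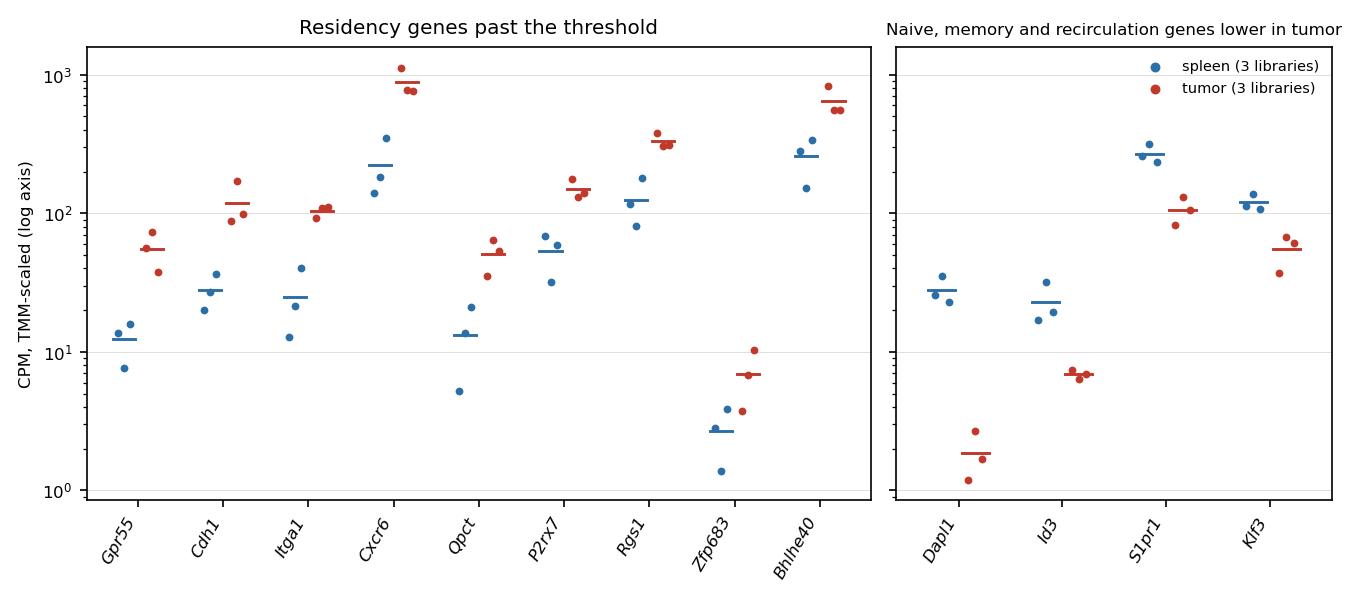
CPM on a log axis of each library (points) and the mean of 3 libraries (short lines) for the 9 residency genes past the threshold and for 4 lower genes of the naive, memory and recirculation list, in spleen (blue) and tumor (red). Tumor points stand above spleen points for every residency gene but Zfp683, where the groups overlap, and below them for Dapl1, Id3, S1pr1 and Klf3.

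Chemokine receptors differed gene by gene, with 2 of 18 higher and 3 lower in the list that shares Cxcr6 and S1pr1. Ccr1, a receptor of inflammatory chemokines on T cells and myeloid cells, was 3.26-fold higher at 26.7 ± 10.7 against 8.19 ± 2.84 CPM (adjusted p = 0.0409, and 0.0517 with a replicate block). Cxcr5, which guides B cells and follicular T cells into follicles, was lower at 1.79, 12.7 and 9.09 CPM against 74.4, 69.8 and 50.7 CPM (adjusted p = 0.00707). Ccr10 was at 0, 0 and 0.112 CPM in tumor against 1.01, 3.18 and 1.52 CPM in spleen. Without spleen replicate 2 or tumor replicate 1 no gene of the list was higher and 1 was lower. Ccr1 passed without tumor replicate 3 and lost its call without each of the other 5 libraries (0.0803 to 0.164).

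Among 20 inhibitory receptor and exhaustion genes, 4 were higher and 1 lower, with a median log2 fold change of 0.45. Pdcd1, which encodes PD-1, was at 423, 495 and 274 CPM in tumor against 47.5, 47.7 and 109 CPM in spleen. The tumor values lay above the spleen values, a fold of 5.83, with an SE that brought the gene close to the threshold (log2 fold change 2.54, SE 0.78, adjusted p = 0.0493, and 0.0795 with a replicate block). It did not pass without any of the 6 libraries (0.0623 to 0.206). Ctla4, the competitor of CD28 for its ligands, was at 60.2, 57.9 and 36.8 CPM against 6.64, 5.86 and 12.9 CPM, a fold of 6.10 (adjusted p = 0.0258). Its adjusted p was 0.0691 without spleen replicate 1, 0.139 without spleen replicate 2, 0.0793 without tumor replicate 1 and 0.0682 without tumor replicate 2.

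Cd101, an inhibitory surface molecule, was at 83.0, 80.3 and 75.9 CPM in tumor against 21.9, 14.9 and 30.3 CPM in spleen, a fold of 3.56 (log2 fold change 1.83, SE 0.33, adjusted p = 0.00397). Rbpj, the DNA-binding partner of Notch, was 3.10-fold higher (adjusted p = 0.0113, and 0.0654 without spleen replicate 2). Btla, an inhibitory receptor abundant on B cells and naive T cells, was 3.78-fold lower in tumor at 43.4, 67.9 and 45.0 against 132, 294 and 164 CPM (adjusted p = 0.00312). Cd101 and Btla passed whichever library was left out. Havcr2 (TIM-3) was at 35.6 ± 4.65 against 63.1 ± 30.4 CPM, Tox, a transcription factor of exhausted T cells, at 49.1 ± 12.5 against 31.3 ± 12.2 CPM, and Tigit at 90.5 ± 23.6 against 36.0 ± 16.6 CPM, none of which passed. The 4 higher genes became 1 without spleen replicate 2, and 2 without spleen replicate 1, tumor replicate 1 or tumor replicate 2.

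Costimulatory TNF receptors were led by Tnfrsf4, which encodes OX40 (chr4:156013843-156016612, GRCm38). It was at 41.8, 50.6 and 24.5 CPM in tumor against 3.32, 3.29 and 7.07 CPM in spleen, a fold of 8.51 without overlap (log2 fold change 3.09, SE 0.51, adjusted p = 0.00246), and it passed whichever library was left out (0.00385 to 0.0257). Tnfrsf18, which encodes GITR, was at 195 ± 36.6 against 89.8 ± 29.5 CPM (adjusted p = 0.0112). Tnfrsf1b, the second receptor of TNF, was at 423 ± 26.2 against 228 ± 41.0 CPM (adjusted p = 0.00796). Icos, a CD28 relative kept in this list, was 3.08-fold higher (adjusted p = 0.0426, and 0.0701 with a replicate block). Cd40, the receptor of antigen-presenting cells and B cells, was lower at 12.2 ± 2.35 against 42.6 ± 17.7 CPM (adjusted p = 0.0201). Tnfrsf9, which encodes 4-1BB, did not pass at 387 ± 35.2 against 166 ± 57.2 CPM (adjusted p = 0.280). Without spleen replicate 2 Tnfrsf4 alone of these 14 genes was past the threshold.

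Of 21 cytotoxic genes 2 were higher and 1 lower, where 4.92% of all genes tested were higher and 3.86% lower. Gzmb, the granzyme B gene, was at 914, 1139 and 1642 CPM in tumor and 453, 310 and 897 CPM in spleen. It did not pass (log2 fold change 1.16, SE 0.63, adjusted p = 0.273). Its groups do not overlap, as held for 31.2% of all genes tested. Prf1, the pore-forming perforin, was at 203 ± 17.5 and 247 ± 14.6 CPM, and Gzma at 810 ± 441 and 693 ± 457 CPM. Gzmm was lower in tumor at 13.5, 17.8 and 18.0 against 45.5, 58.9 and 58.5 CPM (adjusted p = 0.0257). Srgn, the proteoglycan that packs granules, was 1.70-fold higher (adjusted p = 0.0340, and 0.0558 with a replicate block), and Gzmc was at 5.74, 14.8 and 4.60 against 1.16, 0.877 and 2.06 CPM (adjusted p = 0.0498, and 0.0985 with a replicate block). Without spleen replicate 2, tumor replicate 1, tumor replicate 2 or tumor replicate 3 none of these 3 passed, and without spleen replicate 1 Gzmm alone did. Ifng, the interferon gamma gene, was at 99.0, 51.7 and 61.3 CPM in tumor and 64.5, 29.3 and 97.7 CPM in spleen, groups that overlap (adjusted p = 0.925).

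Of 18 effector transcription factor genes 3 were higher in tumor and none lower. Maf, the gene of the factor c-MAF, was at 27.3, 20.8 and 13.3 CPM against 2.22, 3.73 and 5.50 CPM, a fold of 5.36 (adjusted p = 0.0132). Rora, a nuclear receptor of innate-like and type 17 lymphocytes, was at 265, 210 and 132 CPM against 74.1, 35.7 and 84.0 CPM (adjusted p = 0.0143). Tumor replicate 1 stood highest for both genes. None of the 3 genes of the list passed without spleen replicate 2 or without tumor replicate 1. Il23r, a chain of the IL-23 receptor of type 17 cells, is named although outside the rule for named genes and was chosen after its values were seen, at 17.7 ± 11.8 against 2.27 ± 0.66 CPM (adjusted p = 0.0297, and 0.0711 with a replicate block).

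Among the lists of T cell genes, glycolysis and hypoxia genes, which are not particular to T cells, had the largest share of calls. Of 28 genes 17 were higher in tumor and none lower, 27 had a fold change above 1, and the median log2 fold change was 0.87. The list covers the glycolytic enzymes, the transporters that bring glucose in and carry lactate out, and targets of HIF-1, the factor that turns these genes on at low oxygen by binding elements around the core ACGTG. Slc16a3, the lactate exporter MCT4, was at 103, 72.2 and 58.4 CPM in tumor against 10.6, 6.36 and 18.5 CPM in spleen, a fold of 6.57 (log2 fold change 2.72, SE 0.47, adjusted p = 0.00310). Bnip3, a mitophagy receptor and HIF-1 target, was at 35.9, 23.7 and 12.9 CPM against 1.83, 4.88 and 5.45 CPM, a fold of 5.96 (adjusted p = 0.00400). Ankrd37, another HIF-1 target, was at 9.08, 6.66 and 6.40 CPM against 2.55, 2.08 and 2.45 CPM, a fold of 3.12 (adjusted p = 0.00302).

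Several enzymes of the pathway passed as well. Aldoa, an aldolase, was at 1549, 1271 and 1138 CPM in tumor against 509, 513 and 705 CPM in spleen, a fold of 2.29 (adjusted p = 0.00210). Tpi1, the triosephosphate isomerase, was 2.88-fold higher (adjusted p = 0.00430) and Eno1, an enolase, 1.86-fold higher (adjusted p = 0.00439). These 6 genes passed whichever library was left out. Hif1a itself was at 760, 596 and 481 CPM against 229, 150 and 239 CPM, and Vegfa, the angiogenic growth factor, at 15.4, 10.5 and 3.14 CPM against 0.433, 0.877 and 1.77 CPM (adjusted p = 0.00924 and 0.0150). Ldha, lactate dehydrogenase A, did not pass at 2004 ± 338 against 1423 ± 162 CPM (adjusted p = 0.0888, but 0.0473 with a replicate block). The number past the threshold was 8 without spleen replicate 2, 9 without tumor replicate 1 and 14 to 17 without any of the others. Aldoa overlaps another gene in the annotation and the labels do not state whether the counting used strand. Macrophage markers were higher in the same tumor libraries, and the part of other cells in these differences was not tested.

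The promoters of 2 of these genes show the letters of the HIF-1 core. They are the 250 bases before the transcription start in RefSeq (GRCm38.p6), 5′ to 3′, with each ACGTG or its reverse complement in capitals. In Bnip3 the 2 matches, 1 on each strand, overlap.
Bnip3 (chr7:138909507-138909756, minus strand): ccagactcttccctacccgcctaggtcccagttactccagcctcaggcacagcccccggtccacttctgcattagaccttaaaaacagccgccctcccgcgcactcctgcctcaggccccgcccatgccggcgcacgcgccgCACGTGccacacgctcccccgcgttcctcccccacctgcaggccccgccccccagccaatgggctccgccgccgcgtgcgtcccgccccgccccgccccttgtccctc
Pgk1 (chrX:106186850-106187099, plus strand): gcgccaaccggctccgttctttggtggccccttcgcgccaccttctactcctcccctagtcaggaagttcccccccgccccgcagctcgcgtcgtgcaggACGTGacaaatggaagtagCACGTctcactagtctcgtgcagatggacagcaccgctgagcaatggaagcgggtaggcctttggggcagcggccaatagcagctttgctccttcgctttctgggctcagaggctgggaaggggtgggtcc
Pgk1, phosphoglycerate kinase, was at 294, 230 and 210 CPM in tumor against 132, 127 and 151 CPM in spleen (adjusted p = 0.0128). Searched on both strands, ACGTG occurred in 14 of the 27 promoters of the list that RefSeq holds (51.9%), against 16.6% of all 27025 promoters and 21.1% of the 11763 promoters of genes tested here. It stood in 8 of the 17 genes that were higher and in 6 of the 10 that did not pass, a share no higher among the genes that passed.

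Oxidative phosphorylation genes gave no calls: none of 38 passed by edgeR, 2 had an unadjusted p under 0.05, and the median log2 fold change was -0.06. DESeq2 called 1 of them lower, and limma voom 1 higher and 5 lower. None of 34 cell cycle genes passed by edgeR or DESeq2 (2 with an unadjusted p under 0.05 in edgeR), while limma voom called 2 higher. In edgeR without spleen replicate 1 there was 1 higher. Mki67, the proliferation marker Ki-67, was at 24.1, 13.98 and 27.5 CPM in tumor and 92.8, 25.4 and 33.6 CPM in spleen, where replicate 1 stood apart.

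TGF-beta pathway genes were higher in 7 of 20 cases and lower in none, with a median log2 fold change of 0.97. TGF-beta is a secreted factor, held latent in the matrix and freed by integrins, that signals through 2 receptor chains to SMAD proteins and favors tissue residency of T cells. Tgfb1, the ligand, was at 173, 162 and 152 CPM in tumor against 108, 64.0 and 73.6 CPM in spleen (log2 fold change 0.98, SE 0.16, adjusted p = 0.00265), and it passed whichever library was left out. Of the genes that free or hold the ligand, Itgav, the integrin alpha V chain, was 2.79-fold higher (adjusted p = 0.0396, and 0.0596 with a replicate block), and Ltbp1, the latent TGF-beta binding protein of matrix cells, was at 8.61, 7.84 and 5.67 CPM against 1.16, 0.658 and 1.18 CPM (adjusted p = 0.0203). Tgfbr2, the ligand-binding receptor chain, was at 456 ± 5.74 against 263 ± 45.2 CPM (adjusted p = 0.0406, and 0.0751 with a replicate block). Tgfbr1, the signaling chain, did not pass at 37.0 ± 10.5 against 28.6 ± 5.27 CPM.

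Targets and inhibitors of the same pathway were among the higher genes. Pmepa1, a TGF-beta target that restrains SMAD signaling, was at 55.6, 74.4 and 70.2 CPM in tumor against 11.9, 14.5 and 26.3 CPM in spleen, a fold of 3.796 (log2 fold change 1.92, SE 0.37, adjusted p = 0.00546), and it passed whichever library was left out. Smad7, an inhibitory SMAD induced by the pathway, was 1.93-fold higher at 69.8 ± 4.41 against 36.2 ± 13.0 CPM (adjusted p = 0.0157). Ski, a repressor of SMADs, passed with groups that overlap, at 120, 124 and 33.8 CPM against 49.0, 27.0 and 24.2 CPM (adjusted p = 0.0429). The 7 genes became 2 without spleen replicate 2, without spleen replicate 3 or without tumor replicate 1, and 3 without tumor replicate 2. Fibroblast markers, which include makers of matrix, summed to 218 to 300 CPM in the tumor libraries and 72.7 to 102 CPM in the spleen libraries. The sum includes Thy1, which T cells express as well. The part of fibroblasts in the result was not tested.

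**Figure D3:**
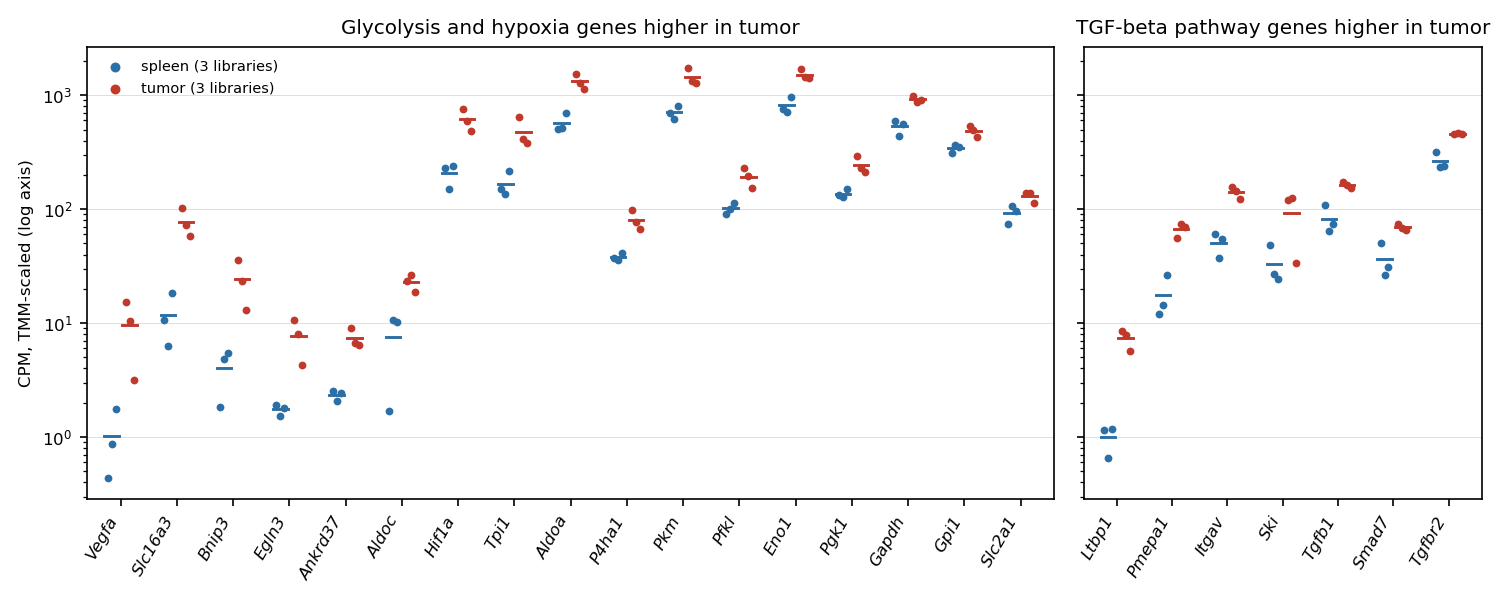
CPM on a log axis of each library (points) and the mean of 3 libraries (short lines) for the 17 glycolysis and hypoxia genes and the 7 TGF-beta pathway genes that were higher in tumor, in spleen (blue) and tumor (red). Within each list genes are ordered by fold change, the first from Vegfa (1.03 CPM in spleen and 9.67 in tumor on average) to Slc2a1, and Ski is the gene whose tumor and spleen points overlap.

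Type I interferon acts through elements with GAAA repeats in front of antiviral genes. Of 22 such genes 9 were higher and none lower, all 22 had a fold change above 1, and the median log2 fold change was 1.18. Oas3, an antiviral sensor of double-stranded RNA, was at 160, 236 and 207 CPM in tumor against 60.1, 35.7 and 66.1 CPM in spleen, a fold of 3.72 (log2 fold change 1.90, SE 0.31, adjusted p = 0.00259). It passed whichever library was left out. Isg15, a ubiquitin-like modifier, was at 102, 154 and 127 CPM against 19.5, 32.6 and 48.2 CPM (adjusted p = 0.0129), and Ifit1, an inhibitor of viral translation, at 189, 325 and 271 CPM against 19.5, 55.2 and 91.4 CPM (adjusted p = 0.0221). Tumor replicate 2 stood highest for Oas3, Isg15 and Ifit1. The number past the threshold was 2 without spleen replicate 2, 3 without tumor replicate 2 and 4 without spleen replicate 1. These genes are not particular to T cells, and the part of other cells in the result was not tested.

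The promoters of Isg15, Oas3 and Ifit1 are shown because each holds the core of the interferon-stimulated response element, here searched as GAAANNGAA on both strands, with overlapping matches joined. Capitals mark the matches in the 250 bases before the start (RefSeq, GRCm38.p6, 5′ to 3′), 3 in Isg15, 2 in Oas3 and 3, on the other strand, in Ifit1.
Isg15 (chr4:156200819-156201068, minus strand): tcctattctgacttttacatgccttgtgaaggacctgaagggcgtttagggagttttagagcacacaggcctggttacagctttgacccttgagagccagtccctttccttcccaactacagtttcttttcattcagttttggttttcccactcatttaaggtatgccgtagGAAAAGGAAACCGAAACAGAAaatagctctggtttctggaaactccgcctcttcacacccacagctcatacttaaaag
Oas3 (chr5:120777660-120777909, minus strand): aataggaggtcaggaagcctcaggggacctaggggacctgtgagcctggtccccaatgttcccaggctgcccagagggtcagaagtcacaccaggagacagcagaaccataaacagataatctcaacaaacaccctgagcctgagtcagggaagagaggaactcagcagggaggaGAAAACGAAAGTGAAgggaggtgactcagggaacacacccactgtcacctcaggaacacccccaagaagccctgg
Ifit1 (chr19:34640639-34640888, plus strand): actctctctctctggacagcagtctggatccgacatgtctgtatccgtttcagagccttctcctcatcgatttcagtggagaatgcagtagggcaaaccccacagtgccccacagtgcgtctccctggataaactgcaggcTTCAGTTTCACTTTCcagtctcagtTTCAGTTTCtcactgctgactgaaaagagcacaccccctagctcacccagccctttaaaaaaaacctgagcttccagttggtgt
The motif occurred in 9 of the 17 promoters of the list that RefSeq holds (52.9%), against 7.15% of all promoters and 6.54% of those of genes tested. It stood in 6 of 8 promoters of genes that were higher and in 3 of 9 of those that did not pass. In the glycolysis and hypoxia list it stood in 2 of 27 promoters (7.41%).

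Interferon gamma response genes were higher in 8 of 21 cases and lower in 2. Cd274, which encodes PD-L1, was at 66.0, 96.3 and 64.1 CPM in tumor against 42.4, 39.1 and 42.5 CPM in spleen (log2 fold change 0.87, SE 0.17, adjusted p = 0.00574) and passed whichever library was left out. The guanylate-binding protein genes Gbp6 and Gbp2, of the family that attacks intracellular pathogens, were 2.94-fold and 1.74-fold higher (adjusted p = 0.00888 and 0.00941). Tgtp1 and Tgtp2, near-identical copies between which reads may be split, were both 1.80-fold to 1.81-fold higher. The 2 lower members were Ciita, the switch of MHC class II genes, at 15.9, 21.3 and 14.6 against 68.5, 127 and 68.1 CPM (adjusted p = 0.00400), and Cxcl9, a chemokine for CXCR3, at 11.1 ± 5.08 against 48.5 ± 15.8 CPM (adjusted p = 0.0473, and 0.0678 with a replicate block). Cxcl10, which acts on the same receptor, was higher at 196 ± 45.7 against 53.4 ± 27.1 CPM (adjusted p = 0.0227). Without spleen replicate 2, 1 gene of the list was higher and 1 lower. Of 19 MHC class I genes 2 were higher: Nlrc5, the class I transactivator, at 194 ± 51.3 against 79.5 ± 31.1 CPM (adjusted p = 0.00439), and B2m at 7121 ± 240 against 5244 ± 557 CPM (adjusted p = 0.0472, and 0.0553 with a replicate block). The count of MHC class I genes was 1 without any library other than spleen replicate 3. Over all genes tested 4.92% were higher.

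In the alternative NF-kB pathway, on which LCL161 acts, 1 of 14 genes tested was higher and 3 were lower, and both tissues came from treated mice. Over all genes tested 4.92% were higher and 3.86% lower. The values are RNA levels, while LCL161 acts on the cIAP proteins, and protein was not measured here. Birc2 and Birc3, the genes of cIAP1 and cIAP2, were at 87.9 ± 14.04 against 64.1 ± 2.65 CPM and at 143 ± 15.6 against 171 ± 16.9 CPM (adjusted p = 0.213 and 0.367). Nfkb2 and Relb, the subunits of the alternative pathway, were at 402 ± 77.0 against 280 ± 98.1 CPM and at 198 ± 20.7 against 181 ± 30.4 CPM (adjusted p = 0.183 and 0.716, and for Nfkb2 0.0442 with a replicate block). Map3k14, which encodes the kinase NIK, a protein that cIAP1 and cIAP2 keep low, was at 31.9, 43.9 and 27.1 CPM against 22.6, 16.3 and 16.3 CPM (adjusted p = 0.0455, and 0.0568 with a replicate block). It did not pass without spleen replicate 2 (0.192), spleen replicate 3 (0.145), tumor replicate 1 (0.0941) or tumor replicate 2 (0.196). The 3 lower genes of this list, Tnfrsf13c (the BAFF receptor), Cxcr5 and Cd40, are known from B cells, whose markers were lower as well. The part of B cells in these values was not tested.

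Of 21 classical NF-kB targets 3 were higher. Tnfaip3, which encodes the feedback inhibitor A20, was at 713, 544 and 564 CPM in tumor against 264, 131 and 262 CPM in spleen, a fold of 2.77 (log2 fold change 1.47, SE 0.32, adjusted p = 0.0105, and 0.0743 without spleen replicate 2). Nfkbia, the inhibitor IkB alpha, was at 607 ± 113 against 642 ± 155 CPM and Icam1 at 485 ± 89.9 against 446 ± 68.7 CPM, neither of which passed. The survival gene Bcl2l1, which encodes BCL-XL, was 1.66-fold higher (adjusted p = 0.0311), and Bcl2a1b, one of several similar copies, 2.11-fold (adjusted p = 0.0241). None of these 3 passed without spleen replicate 2, and Tnfaip3 alone did without tumor replicate 1.

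Genes that are induced within minutes of receptor signals or by tissue dissociation were higher in 6 of 22 cases and lower in 1. Dusp1, a phosphatase of MAP kinases, was at 356, 274 and 271 CPM in tumor against 51.9, 97.1 and 140 CPM in spleen (adjusted p = 0.00700) and passed whichever library was left out. Jun was at 424, 492 and 202 CPM against 145, 131 and 152 CPM (adjusted p = 0.0150), and Fos at 106, 124 and 63.5 CPM against 16.3, 35.3 and 39.1 CPM (adjusted p = 0.0317, and 0.0636 with a replicate block). The labels describe single cell suspensions from both tissues and give no time or enzyme for either, so the part of dissociation was not tested. The lower member, Batf3, was at 3.14 ± 1.00 against 15.6 ± 8.76 CPM and also marks dendritic cells (adjusted p = 0.0297, and 0.0589 with a replicate block). The 6 higher genes became 3 without spleen replicate 1 or spleen replicate 3, and 1 without spleen replicate 2, tumor replicate 1 or tumor replicate 2.

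RNA of cells other than T cells was present in both tissues and differed between them. The values of all 16 B cell markers were lower in tumor without overlap, and 13 passed, with a median log2 fold change of -3.82. Bank1, a B cell adaptor, was at 5.51 ± 1.44 against 75.4 ± 18.0 CPM (adjusted p = 0.000732). The count of B cell markers was 11 to 13 whichever library was left out. Of 13 MHC class II genes 10 were lower (summed level 2612 to 4618 CPM in tumor, 7386 to 20370 CPM in spleen), but 2 without spleen replicate 2 or tumor replicate 1 and 6 without tumor replicate 3. Of 13 plasma cell genes 8 were lower and 1 higher, Sdc1, a proteoglycan that epithelium shares. The lower genes were 2 without spleen replicate 2, 3 without tumor replicate 1 or tumor replicate 2 and 5 without tumor replicate 3.

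Of 19 monocyte and macrophage markers 13 were higher and none lower, with a median log2 fold change of 2.77 and a summed level of 3214 to 4182 CPM against 1932 to 2521 CPM in spleen. The count was 6 without spleen replicate 2 and 9 to 11 without any of the others. C1qa, a chain of the complement protein C1q made by macrophages, was at 63.3, 72.6 and 40.0 CPM in tumor against 3.13, 3.78 and 11.1 CPM in spleen, a fold of 9.72 (adjusted p = 0.00227). Csf1r, their growth factor receptor, was at 44.3, 66.4 and 39.6 CPM against 12.9, 14.4 and 17.3 CPM (adjusted p = 0.00486).

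Of 13 tested ductal and tumor epithelial genes 6 were higher and 1 lower. Krt18, an epithelial keratin, was at 14.8, 16.98 and 11.3 CPM against 1.06, 1.15 and 3.24 CPM (adjusted p = 0.0183), and Spp1, osteopontin, which macrophages share, at 164 ± 27.4 against 22.4 ± 18.7 CPM. Epcam, an epithelial adhesion molecule, went the other way, at 1.77 ± 0.42 against 6.13 ± 1.54 CPM (adjusted p = 0.00476). Cldn4, Cldn18, Agr2 and Krt20 of this list were at 0 in all tumor libraries. The 6 higher genes became 1 without spleen replicate 1 or tumor replicate 2, 2 without tumor replicate 1 and 0 without spleen replicate 2. Of 14 tested fibroblast genes 5 were higher (0 without spleen replicate 2 or tumor replicate 1, 2 without spleen replicate 1 or tumor replicate 2). Of 15 markers of conventional dendritic cells, some of which carry CD8, 2 were lower, with sums of 798 to 1098 CPM in tumor and 925 to 1719 CPM in spleen. None of the 15 passed without spleen replicate 2, tumor replicate 1 or tumor replicate 2, and 1 did without tumor replicate 3 or with a replicate block. No gene of the acinar, mast cell, NK cell or plasmacytoid dendritic cell lists passed by edgeR, while 2, 1, 2 and 3 of them had an unadjusted p under 0.05. DESeq2 called 1 NK cell gene higher, and 1 mast cell and 1 plasmacytoid gene lower, and limma voom called none in these 4 lists. In edgeR with the compared libraries alone 1 acinar gene was higher. The part of these cells in the differences described above was not tested.

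**Figure D4:**
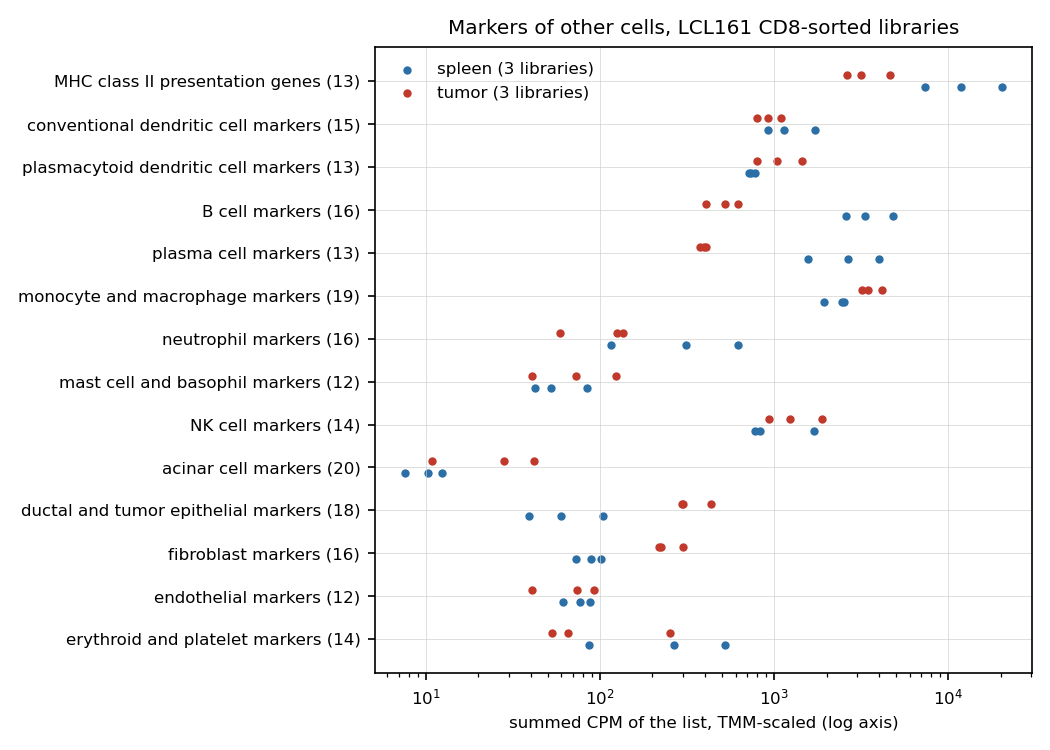
Summed CPM, on a log axis, of the markers of each other cell type (number of genes in parentheses) in the 3 spleen (blue) and 3 tumor (red) libraries of LCL161 CD8-sorted cells. B cell, plasma cell and MHC class II sums are higher in all spleen libraries, and macrophage, epithelial and fibroblast sums in all tumor libraries.

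The 12 largest rises among genes with at least 10 CPM in the higher group ran from Krt83 (41.1, 59.5 and 24.7 CPM in tumor against 0.289, 1.53 and 5.74 CPM in spleen, log2 fold change 4.04) to Vipr2, a receptor of vasoactive intestinal peptide (10.8 ± 7.56 against 0.855 ± 0.37 CPM, log2 fold change 3.64). Between them stood the monocyte-attracting chemokines Ccl12 and Ccl7, the scavenger receptor gene Stab1, Fcrls, known from microglia, the prostaglandin synthase gene Ptgs2, the water channel gene Aqp5, the carboxypeptidase gene Cpe, and Tm4sf1, Rhox5 and Ablim3. In spleen the mean level of each of the 12 was at most 2.52 CPM, and spleen replicate 3 held the highest of the 3 spleen values for each. Fcrls (24.9 ± 10.2 against 1.61 ± 1.498 CPM), Stab1 and Cpe passed whichever library was left out, and the other 9 did not, while Tm4sf1 also lost its call with a replicate block (adjusted p = 0.0604).

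The 12 largest falls were immunoglobulin genes, granule genes of neutrophil precursors, B cell genes and a red cell gene. Ighg2c, a heavy chain, was at 0.120, 0.392 and 12.1 CPM in tumor against 74.2, 418 and 192 CPM in spleen, and Jchain, which links antibody multimers, at 0.0598, 1.11 and 15.04 CPM against 86.5, 385 and 246 CPM. Tumor replicate 3 held most of the tumor reads of these 2 genes, and spleen replicate 2 the highest spleen values. Mpo, the myeloperoxidase of neutrophil granules, was at 0, 0.196 and 3.71 CPM against 35.7, 147 and 67.1 CPM. Cr2, a complement receptor of B cells, was at 1.08, 0.0653 and 3.14 CPM against 112, 83.8 and 53.7 CPM (adjusted p = 0.00279). Among the others were Ighg1, Igha, Ighg3, Car1, Camp, Elane and Ltf. With a replicate block the adjusted p of Elane was 0.0571. Of those named, Car1, Cr2 and Ighg3 passed whichever library was left out.

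The tissue difference under LCL161 was set beside that under vehicle by the test of the difference between the 2. Of 20174 genes 5 (0.0248%) passed, all with a higher tumor to spleen ratio under LCL161, and 1823 had an unadjusted p under 0.05. Rab43, a small GTPase (chr6:87788853-87812164, GRCm38), was at 55.6 ± 4.99 CPM in tumor and 92.0 ± 36.3 CPM in spleen under LCL161, and at 53.1 ± 7.11 and 302 ± 17.6 CPM under vehicle (difference of log2 fold changes 1.78, SE 0.29, adjusted p = 0.0303). Mtmr4, a phosphatase of endosomal lipids, was at 47.7 ± 7.62 and 59.5 ± 16.2 CPM under LCL161 and at 61.8 ± 6.86 and 225 ± 12.2 CPM under vehicle (difference 1.55, SE 0.25, adjusted p = 0.0303). Abca3, a lipid transporter, was at 27.4 ± 3.21 and 20.6 ± 6.23 CPM under LCL161 and at 27.0 ± 2.39 and 69.8 ± 3.68 CPM under vehicle (difference 1.79, SE 0.29, adjusted p = 0.0303). In each of these genes the spleen level under vehicle was the highest of the 4 groups. Gm45140, which overlaps Rab43 on the same strand, and the predicted gene Gm8221 also passed (adjusted p = 0.0136 and 0.0127) and are named although outside the rule for named genes. The count of 5 was 0 without spleen LCL161 replicate 3, vehicle tumor replicate 1 or vehicle tumor replicate 3 (1170, 1386 and 1537 with an unadjusted p under 0.05), 98 without spleen LCL161 replicate 1, 185 by DESeq2 and 836 by limma voom, and 1 to 11 without each of the other libraries.

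No gene of the 38 lists passed this test by edgeR, and the 2 tissue differences are given as values. The median log2 fold change of the residency list was 1.22 under LCL161 and 1.39 under vehicle, that of glycolysis and hypoxia genes 0.87 and 0.88, that of type I interferon genes 1.18 and 1.81 and that of TGF-beta pathway genes 0.97 and 0.44. Tgfb1 was at 139 ± 7.51 CPM in tumor and 171 ± 8.44 CPM in spleen under vehicle, a log2 fold change of -0.30 (SE 0.16) against 0.98 under LCL161 (adjusted p of the difference 0.0646). Tnfrsf4 was at 10.4 ± 3.98 and 5.51 ± 1.74 CPM under vehicle, 0.92 (SE 0.48) against 3.09 (0.337). Cd69 was at 320 ± 23.1 and 104 ± 6.39 CPM under vehicle, 1.62 (SE 0.23) against 0.18 (0.143). Gzmb had a log2 fold change of 3.99 (SE 0.70) under vehicle and 1.16 under LCL161 (0.337). None of these 4 differences passed, which does not show that the treatments act alike. In the spleen libraries the summed markers of conventional dendritic cells were 3804 to 4152 CPM under vehicle and 925 to 1719 CPM under LCL161. The part of these cells in the values above, and in those of Rab43, Mtmr4 and Abca3, was not tested.

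The CD8 sort differed from the CD4 sort of the same treatment in 664 genes, 457 (2.27%) with a higher and 207 (1.03%) with a lower tumor to spleen difference in CD8-sorted cells. Inhibitory receptor and exhaustion genes made up 6 of these, all on the higher side, of 20 tested. Pdcd1 was at 280 ± 331 CPM in tumor and 918 ± 330 CPM in spleen in CD4-sorted cells, a log2 fold change of -1.71 (SE 0.76) against 2.54 in CD8-sorted cells (difference 4.26, SE 1.09, adjusted p = 0.0384). Ctla4 was at 71.7 ± 43.0 and 148 ± 18.7 CPM in CD4-sorted cells, -1.04 against 2.61 (adjusted p = 0.0394). Tigit was at 40.3 ± 26.1 and 226 ± 84.7 CPM, -2.49 against 1.33 (adjusted p = 0.00506), and Tox at 30.4 ± 29.5 and 296 ± 73.8 CPM, -3.29 against 0.65 (adjusted p = 0.0135). Ikzf2, the gene of the factor Helios, was at 20.97 ± 29.3 and 198 ± 59.1 CPM, -3.25 against 0.96 (adjusted p = 0.0218). Lag3 completed the 6, at 3.40 ± 3.01 and 45.0 ± 31.1 CPM in CD4-sorted cells and 14.4 ± 5.16 and 4.70 ± 2.37 CPM in CD8-sorted cells (adjusted p = 0.0205). The spleen level in the CD4 sort was the highest of the 4 groups for each of these 6 genes. In CD4-sorted tumor the SD exceeded the mean for Pdcd1 and Ikzf2 and came near it for Tox and Lag3. These 6 calls were not checked gene by gene with a library left out.

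Other lists held genes of the same kind. Maf, of the transcription factor list, was at 45.4 ± 24.9 and 179 ± 74.7 CPM in CD4-sorted cells, -1.98 against 2.42 (adjusted p = 0.00592). Tnfrsf4 was at 362 ± 153 CPM in tumor and 563 ± 312 CPM in spleen in the CD4 sort, a log2 fold change of -0.64 (SE 0.45) against 3.09 (adjusted p = 0.00675), and both CD4-sorted levels stood above both CD8-sorted ones. Pmepa1, of the TGF-beta list, was at 24.3 ± 4.71 and 28.4 ± 8.85 CPM in CD4-sorted cells, -0.23 against 1.92 (adjusted p = 0.0290), and Tgfb1 at 206 ± 19.3 and 189 ± 21.4 CPM, 0.13 against 0.98 (adjusted p = 0.0474). Nfkb1, the p50 subunit gene, had a log2 fold change of -0.73 (SE 0.13) in CD4-sorted and 0.37 (SE 0.13) in CD8-sorted cells (adjusted p = 0.00489). Cd69 went the other way, at 635 ± 90.7 and 205 ± 43.3 CPM in CD4-sorted cells, 1.63 against 0.18 (adjusted p = 0.0204).

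Other genes are given as values from both sorts. Cxcr6 had log2 fold changes of 1.99 (SE 0.47) in CD8-sorted and 2.54 (SE 0.48) in CD4-sorted cells (difference -0.55, SE 0.64, adjusted p = 0.668), and Slc16a3 of 2.72 and 2.59 (difference 0.13, SE 0.62, adjusted p = 0.946). Slc2a1, the glucose transporter GLUT1, differed, with 0.49 (adjusted p = 0.0403, and 0.0708 with a replicate block) in CD8-sorted and 1.77 in CD4-sorted cells (adjusted p of the difference 0.00336). The median of glycolysis and hypoxia genes was 0.87 in CD8-sorted and 1.43 in CD4-sorted cells. The count of 664 was 224 to 300 without spleen CD8 replicate 3, spleen CD8 replicate 2, tumor CD4 replicate 1 or tumor CD8 replicate 2, 352 to 416 without spleen CD4 replicate 2, tumor CD8 replicate 1 or tumor CD4 replicate 3, and 1075 and 1084 without spleen CD4 replicate 3 and spleen CD8 replicate 1.

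**Figure D5:**
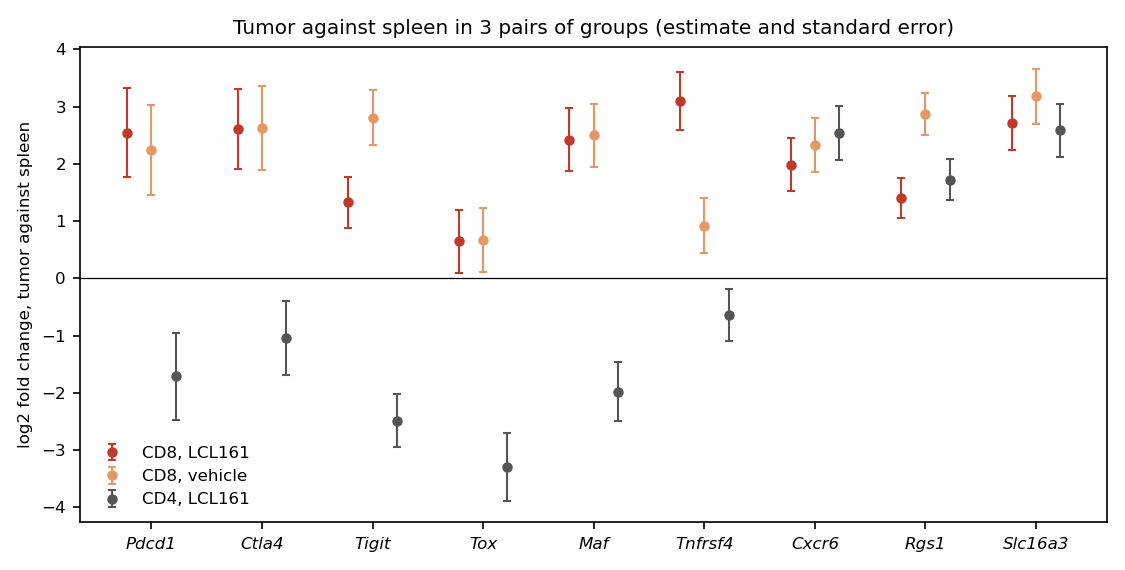
Log2 fold change of tumor against spleen (points, with bars of 1 standard error, from edgeR over all 24 libraries) for 9 genes in CD8-sorted cells under LCL161 (red), CD8-sorted cells under vehicle (orange) and CD4-sorted cells under LCL161 (gray). Pdcd1, Ctla4, Tigit, Tox, Maf and Tnfrsf4 lie above 0 in both CD8 pairs and below 0 in the CD4 pair, while Cxcr6, Rgs1 and Slc16a3 lie above 0 in all 3.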

How the data were processed

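The series holds 24 RNA-seq libraries in 8 groups of 3 (tumor or spleen, CD4 or CD8 sort, vehicle or LCL161). The authors deposited 1 table of expected counts per gene symbol, for 55025 symbols, in which 52.69% of non-zero values are not whole; the values were rounded to whole numbers here. Per the submitters' processing notes, cutadapt, STAR 2.7.3a and the mouse build GRCm38 were used, while no source used here names the counting tool, its annotation or the strand. No column of the table was left unused (0).

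Libraries were scaled by TMM and fitted together in edgeR 4.0.16 (R 4.3.3, quasi-likelihood test, filterByExpr with a minimum count of 10), which left 20174 genes, and p-values were adjusted over them by Benjamini-Hochberg at 0.05. Totals ran from 15460000 to 25150000 counts. One contrast compared tumor with spleen in LCL161 CD8-sorted cells, and 2 others compared that difference with those under vehicle and in the CD4 sort. The fit was run before use on simulated counts with the same spread for all genes and no outlying library. That setting is simpler than these data, so the run does not check the calls made here. Other settings tried were scaling by RLE or not at all, keeping all genes, a minimum of 5 CPM, DESeq2 1.42.0, limma 3.58.1 voom, the compared libraries alone, each library left out, a minimum log2 fold change of 1, thinned counts, marker covariates and a replicate block.

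Genes named are the 12 largest rises and falls with at least 10 CPM and no overlap between groups, the 5 largest differences each way, up to 6 members of each T cell list and 3 of each other list by adjusted p, and a panel of marker genes; further list members are named with their values. The comparison and the 38 lists (663 genes) were chosen with earlier results of these data known. Same-numbered tumor and spleen libraries of the LCL161 CD8 sort deviated together from their group means over genes (r = 0.112, 0.124 and 0.166, against -0.123 to -0.0147 for the others). Deviations from a group mean sum to 0, so the negative values are partly forced. Same-number values were 0.0268, 0.0633 and 0.017 for vehicle CD8, and 0.0155, -0.0383 and 0.00524 for tumor CD8 with tumor CD4 under LCL161. The reported fit has no pairing. Only the replicate block used the numbers, and it joined all groups of a treatment by number. Every pair of LCL161 CD8 replicates differed by more than sampling noise (chi-square per gene 17.97 to 62.56). Of 692 listed and named genes 691 had a position in GENCODE M21. Promoters are from RefSeq. Some genes that the rule names are not reported here.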

Additional observations from a re-analysis of the deposited data

Results flagged for a closer look

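The difference between tumor and spleen was not the same under LCL161 and vehicle for 5 genes of the CD8 sort, by edgeR's test of the difference itself. The naming rule takes in 3 of them: Abca3 (adjusted p = 0.0303), Mtmr4 (adjusted p = 0.0303) and Rab43 (adjusted p = 0.0303), with their levels in the report. Gm45140, another of the 5, overlaps Rab43 on the same strand. The count of 5 was 0 without spleen LCL161 replicate 3, vehicle tumor replicate 1 or vehicle tumor replicate 3. Between the CD8 and the CD4 sort under LCL161 the same test separated more genes. Those calls were not checked gene by gene with a library left out.

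Receptors, ligands and factors with a higher tumor to spleen difference in CD8-sorted cells were Pdcd1 (adjusted p = 0.0384), Ctla4 (0.0394), Tigit (0.00506), Tox (0.0135), Maf (0.00592), Tnfrsf4 (0.00675), Pmepa1 (0.0290), Nfkb1 (0.00489) and Tgfb1 (0.0474), all by edgeR. Cxcr5 was at 7.85 CPM in tumor and 65.0 CPM in spleen in CD8-sorted cells and at 4.48 and 630 CPM in CD4-sorted cells (adjusted p = 0.0146). Cd27, a costimulatory receptor, was at 51.6 and 120 CPM in the CD8 sort and at 4.76 and 137 CPM in the CD4 sort (adjusted p = 0.0204). Tnfsf13b, which encodes the B cell survival factor BAFF, was at 3.95 and 1.59 CPM against 2.37 and 12.6 CPM (adjusted p = 0.0124). Egr1, an early gene of receptor signals, was at 74.5 and 43.1 CPM against 119 and 239 CPM (adjusted p = 0.0136).

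The difference was lower in CD8-sorted cells for Cd69 (adjusted p = 0.0204), for Ctsw, a protease of cytotoxic cells (840 and 540 CPM in the CD8 sort, 743 and 153 CPM in the CD4 sort, adjusted p = 0.00631), and for the lectin-like receptor gene Klrc3 (3.39 and 4.59 CPM against 1.25 and 0.217 CPM, adjusted p = 0.00971). Xcr1, a chemokine receptor of cross-presenting dendritic cells, was at 22.9 and 71.2 CPM in the CD8 sort and 24.7 and 4.10 CPM in the CD4 sort (adjusted p = 0.0113).

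The largest differences involved genes with little or no RNA in some groups, given here as mean CPM in tumor and spleen. On the higher side these were Slc7a10 (0.233 and 0 in the CD8 sort, 0 and 55.3 in the CD4 sort, adjusted p = 0.00872), Ces2c (0.119 and 0.309 against 0.0185 and 42.8, adjusted p = 0.0462), Slc43a1 (1.77 and 7.30 against 0.0311 and 35.6, adjusted p = 0.00649), Lratd1 (1.13 and 0.279 against 0.524 and 20.4, adjusted p = 0.00338) and Spock2 (11.9 and 2.20 against 1.52 and 40.9, adjusted p = 0.00188). On the lower side were the macrophage protease gene Mmp12 (43.9 and 11.1 against 132 and 0, adjusted p = 0.0392), the mast cell protease genes Cma1 (0.258 and 0.240 against 30.6 and 0, adjusted p = 0.0201) and Cpa3 (0.1402 and 1.13 against 41.7 and 0.320, adjusted p = 0.00336), Ocstamp (2.92 and 34.2 against 1.01 and 0, adjusted p = 0.00675) and Tlr11 (7.10 and 39.0 against 1.68 and 0, adjusted p = 0.00971).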

How the results depend on the processing

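The number of genes that differed between tumor and spleen, 1770, was 4138 by limma voom, 1020 with a log2 fold change of at least 1, 1478 with a replicate block (1371 of them also called without it) and 0 with the marker sums of other cells as covariates (845 at an unadjusted p under 0.05). Leaving out 1 library gave 313 to 1841. With the compared libraries alone the count was 1675, of which 1136 were also called in the reported fit. Without any scaling 50.4% of calls were on the higher side, against 56.05%. DESeq2 called 2563 genes. For the 5 genes that differed from vehicle the count was 2 without scaling, 20 with a minimum of 5 CPM, 185 by DESeq2, 836 by limma voom, 113 with the compared libraries alone, 0 with the covariates (1634 at an unadjusted p under 0.05) and 0 to 98 with 1 library left out. For the 664 genes that differed from the CD4 sort it was 408 without the filter, 1560 by DESeq2, 2208 by limma voom, 249 with the compared libraries alone and 224 to 1084 with 1 library left out, and 78.12% of calls were higher without scaling, against 68.83%.

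Of 125 named genes past the threshold, 124 kept their call with RLE scaling, 124 by DESeq2, 104 without the filter, 105 with a replicate block and 38 without spleen replicate 2. With the covariates none did: 103 kept their direction and 22 turned, none past the threshold, with log2 fold changes of -2.65 for Tm4sf1, -0.35 for Ccl7, -1.32 for Aqp5, 2.33 for Mpo, 1.29 for Elane, 3.28 for Tlr11, 0.21 for Btla, -0.78 for Cxcr6, -0.67 for Rgs1, -0.44 for Itga1, 0.91 for Cd40, -0.012 for Dusp5, -1.02 for Jun, -0.91 for Fosl1, 0.28 for Ciita, -0.13 for Tgtp1, -0.20 for Tgtp2, -0.48 for Gbp2, -0.078 for B2m, 0.18 for Epcam, -0.84 for Col6a1 and 0.032 for Vwf. The B cell and macrophage sums separate the tissues, so the content of these cells and the tissue cannot be told apart. The dendritic cell sums overlap between the tissues. For the other settings the cause was not tested. Of the genes outside the naming rule that the text adds, Bhlhe40 and Vegfa also turned (-0.63 and -0.32). The replicate block changed no call of the genes named in the report beyond those given beside their values. Counts at these totals limit what can be said of genes near 0 CPM.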
